A study of Cerrena unicolor with 12 samples.

Results

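Among the 11281 genes in the deposited transcript table of the white rot fungus *Cerrena unicolor*, 8 genes were listed by the study under both the yeast cell cycle and the yeast meiosis pathway, and these 8 genes are described here. The choice was made by the study from glucose cultures alone: the genes were selected on their difference between the cultivation periods there, as genes past its limits on fold and *P*. The fructose cultures played no part in that choice. The study printed 7 of the 8 genes (A01254, A02702, A06177, A06480, A09221, A09670 and A09761) as higher at cultivation day 6 (Cd-6) in glucose and 1 gene (A02602) as lower, and none of them under any other of its pathways. The gene IDs carried no product name in the sources used here, so no protein name, role, position or sequence is given for a single gene.

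The strain was the wild type *C. unicolor* 87613, and all libraries came from hyphae grown with shaking at 30°C and 200 rpm in a potato dextrose medium whose carbon source was changed. The labels give either fructose or glucose as the single carbon source, and RNA was sequenced from fructose cultures at cultivation day 10 (Cd-10) and Cd-6 and from glucose cultures at Cd-10 and Cd-6. Each of the 4 groups had 3 replicate cultures of the same strain, so that the tests measure the spread between cultures and not between strains. In glucose, the study treats Cd-6 as the period of high and Cd-10 as the period of low laccase activity.

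In yeast, the mitotic cell cycle and meiosis share much of their machinery. Both copy the chromosomes once from licensed replication origins, hold sister chromatids together with cohesin, attach them to the spindle and release them when the anaphase-promoting complex marks the securin for destruction. Meiosis adds its own entry program, recombination between homologues and a further division without DNA replication. In mushroom-forming fungi, vegetative hyphae grow with mitotic divisions, and meiosis takes place in the basidia of fruiting bodies.

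The libraries held 10279983 to 12126094 assigned reads (median 10930112), and 10912 to 11102 genes had a value above 0 in each. The label of hyphae was not checked against marker genes, because the sources used here name few of the IDs and no hyphal marker among them. Pearson's r across genes, which are not independent, was 0.952 to 0.987 between replicate cultures, and no library was a copy of another of its group (chi-square per gene of at least 12.1). In a principal component analysis, the leading axis (42.9% of the variance) placed the Cd-10 cultures on one side and the Cd-6 cultures on the other in both sugars. On the next axis (18.1%), glucose Cd-6 replicate 2 stood apart at -62.6, against -13.2 and -32.0 for replicates 1 and 3 of its group. This library enters the glucose values and the contrast between the sugars. The glucose fold changes, and the contrast for A02602 and A06177, are also given without it. The differences between the sugars within a day, the orders of means and the correlations keep it.

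The values below are normalized counts, namely reads per gene divided by 1 size factor per library, without correction for gene length, so that they compare cultures for 1 gene and not one gene with another. The 8 genes were covered by 25 to 1640 reads per culture, and all 8 passed the filter on low values in every fit. A log2 fold change is on the scale of log2(normalized count + 1), Cd-10 over Cd-6, and understates the change of weakly expressed genes. Because whole mycelium was sequenced, fewer dividing cells and less transcript per cell cannot be told apart in any value that follows.

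In fructose, 1 of the 8 genes passed the test for a difference between the cultivation periods. A02602 was 1.69-fold higher at Cd-10, whereas the other 7 genes, all printed as higher at Cd-6 in glucose, had log2 fold changes between -0.58 and 0.21 that did not pass the test. The test was limma over 10060 genes with Benjamini-Hochberg adjustment, in which 2999 genes (29.8%) changed at an adjusted p below 0.05, 1472 of them (14.6%) higher and 1527 (15.2%) lower at Cd-10. One called gene in 8 does not exceed the share among all genes. Among the 7 genes, 0 passed, with 1 of them (A06177) at an unadjusted p below 0.05 from limma, against 4148 of the 10060 genes tested. The total of 2999 fell to 1789 without fructose Cd-6 replicate 1, and the number of the 8 genes that passed was 1 with any single culture left out. The quasi-likelihood test of edgeR and DESeq2, run on the recovered reads, also called A02602 alone among the 8.

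A02602 had normalized counts of 615, 658 and 627 in the fructose Cd-10 cultures, against 367, 362 and 386 in the fructose Cd-6 cultures. The cultures of the periods were far apart compared with the spread within a period, at 633 ± 22.4 and 372 ± 12.8 (SD, n = 3 each). All 3 Cd-10 cultures lay above all 3 Cd-6 cultures, which 23.8% of all genes tested showed in this direction. The log2 fold change was 0.76 (standard error 0.13, 95% interval 0.46 to 1.05, adjusted p = 0.0023 from limma). Over 21 other settings it ranged from 0.72 to 0.87, with adjusted p = 5.5e-05 to 0.023 in limma, edgeR and DESeq2. It did not reach the fold limit of the study, a log2 fold change of 1 in either direction. Together with an unadjusted *P* below 0.001 from limma, that limit was passed by 10.9% of the genes tested in fructose and by 0 of the 8.

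A01254 had 377, 408 and 554 normalized counts in the fructose Cd-10 cultures and 428, 483 and 329 in the fructose Cd-6 cultures. The ranges overlapped, and the log2 fold change was 0.10 (standard error 0.20, 95% interval -0.34 to 0.54, adjusted p = 0.73 from limma). The interval excludes a log2 fold change of -1, the size of the fold limit on which the genes had been selected in glucose.

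A02702 read 339, 469 and 567 at Cd-10 and 379, 473 and 317 at Cd-6 in fructose, and its log2 fold change was 0.21 (95% interval -0.27 to 0.70, adjusted p = 0.49 from limma). A06480 read 90.1, 151 and 229 at Cd-10 and 117, 208 and 121 at Cd-6, with a log2 fold change of 0.02 (95% interval -0.74 to 0.78, adjusted p = 0.97 from limma). In both genes the spread among the Cd-10 cultures alone exceeded the distance between the means of the periods.

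A09761 had 265, 284 and 442 normalized counts at Cd-10 and 329.8, 349 and 322 at Cd-6 in fructose (log2 fold change -0.06, 95% interval -0.51 to 0.39, adjusted p = 0.85 from limma). A09221 had 77.7, 97.5 and 119.5 at Cd-10 and 109, 138 and 71.8 at Cd-6 (log2 fold change -0.09, 95% interval -0.71 to 0.52, adjusted p = 0.83 from limma). The Cd-10 cultures lay on both sides of the Cd-6 cultures in A09761, and the Cd-6 cultures on both sides of the Cd-10 cultures in A09221. The signs of these 2 values turned positive, to 0.05 and 0.02, when libraries were scaled to equal sums, a scaling that moved the median of all genes to 0.12.

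A09670 and A06177 had the most negative values in fructose. A09670 had 527, 543 and 794 normalized counts at Cd-10 and 712, 1058 and 652 at Cd-6, which overlap, with a log2 fold change of -0.38 (95% interval -0.87 to 0.12, adjusted p = 0.23 from limma). A06177 had 72.5, 57.0 and 70.0 at Cd-10 and 92.8, 118 and 88.0 at Cd-6. It was the only one of the 7 genes whose cultures did not overlap, as seen in 22.8% of all genes tested in this direction, and its log2 fold change was -0.58 (standard error 0.22, 95% interval -1.07 to -0.08). The unadjusted p was 0.026 and the adjusted p 0.075 from limma, with adjusted p = 0.052 to 0.36 over 21 other settings, so that the gene did not pass in any of them. A06177 was also the only one of the 7 whose interval reached beyond -1.

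Over the 7 genes, the median log2 fold change in fructose was -0.06, 3 values being positive and 4 negative. The median over all genes tested was 0.00. With libraries scaled to equal sums the 7 genes gave 5 positive and 2 negative values.

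**Figure D1:**
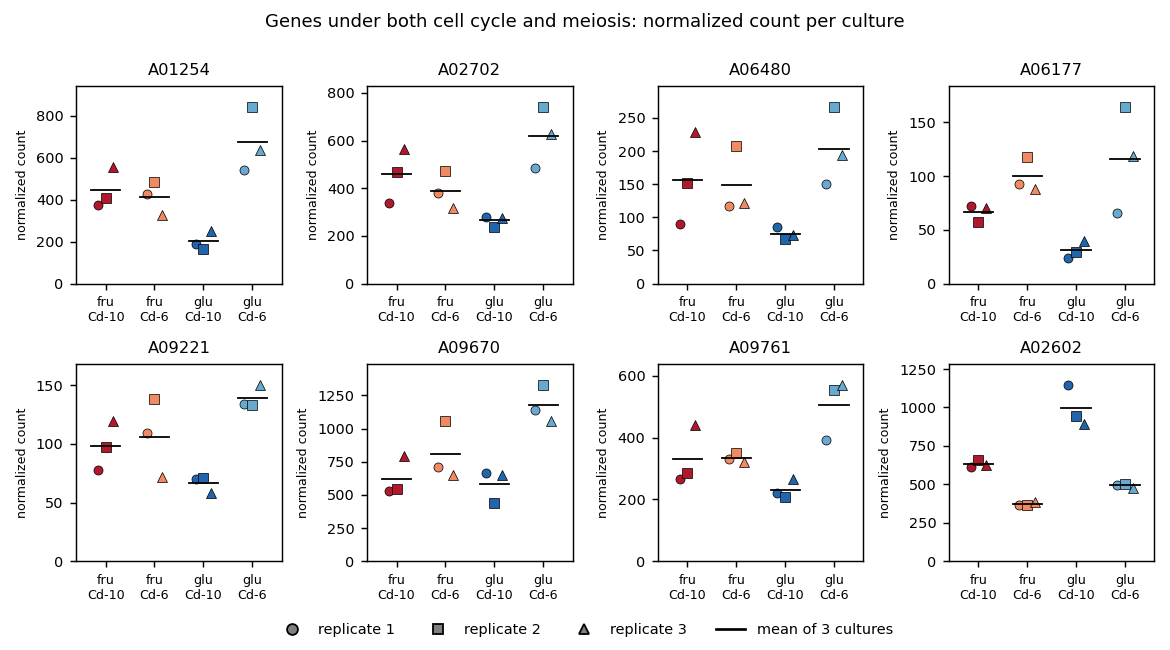
Normalized counts (y axis, linear from 0, own range for each gene) of the 8 genes in every culture, with fructose (fru) Cd-10, fructose Cd-6, glucose (glu) Cd-10 and glucose Cd-6 along the x axis; each symbol is 1 culture, its shape the replicate number, and each bar the mean of 3. A02602 is higher at Cd-10 in both sugars (633 against 372 in fructose), while the other 7 genes, chosen on glucose, are lower at Cd-10 in glucose and, in fructose, overlap except for A06177.

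The glucose values, on which the study chose the genes, are given as a description without a test. A01254 had 189, 167 and 249.7 normalized counts at Cd-10 and 544, 841 and 637 at Cd-6 in glucose (-1.73 on the log2 scale). A06177 had 23.8, 29.1 and 39.7 at Cd-10 and 65.9, 164 and 118 at Cd-6 (-1.81). These were the largest differences among the 8 genes.

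A06480 had 85.6, 67.8 and 73.1 at Cd-10 against 149.8, 266 and 194 at Cd-6 (-1.38 on the log2 scale). A02702 had 280.5, 239 and 277 at Cd-10 against 485, 739 and 630 at Cd-6 (-1.19). A09761 had 222, 208 and 266 at Cd-10 against 392, 554 and 571 at Cd-6 (-1.10). In these 3 genes the Cd-6 cultures spread more widely than the Cd-10 cultures.

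A09221 had 70.4, 71.0 and 58.5 at Cd-10 against 133.8, 133 and 150.3 at Cd-6 (-1.05), and A09670 had 666, 442 and 648 at Cd-10 against 1143, 1329.6 and 1055 at Cd-6 (-1.02). A02602 went the other way, with 1147, 945 and 893 at Cd-10 against 495, 505 and 478 at Cd-6, 2.01-fold higher at Cd-10 (1.01 on the log2 scale). A02602 and A09670 lay just inside the fold limit of the study. Genes of the 2 pathways just outside it were not identified, since the printed lists hold only genes past the limits.

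In the limma fit, 7 of the 8 genes passed both limits of the study in glucose, A06177 being the exception, against 4.25% of all genes in the higher and 2.79% in the lower direction at Cd-10. All 8 genes had periods without overlap between their cultures, against 22.2% of all genes in the higher and 22.5% in the lower direction. Nothing is read from these counts, because the genes were selected on the same cultures. Without glucose Cd-6 replicate 2, the library that stood apart, the log2 fold changes were -1.56 for A01254, -1.52 for A06177, -1.17 for A06480, -1.06 for A02702, -1.03 for A09761, -1.08 for A09221, -0.93 for A09670 and 1.03 for A02602.

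**Figure D2:**
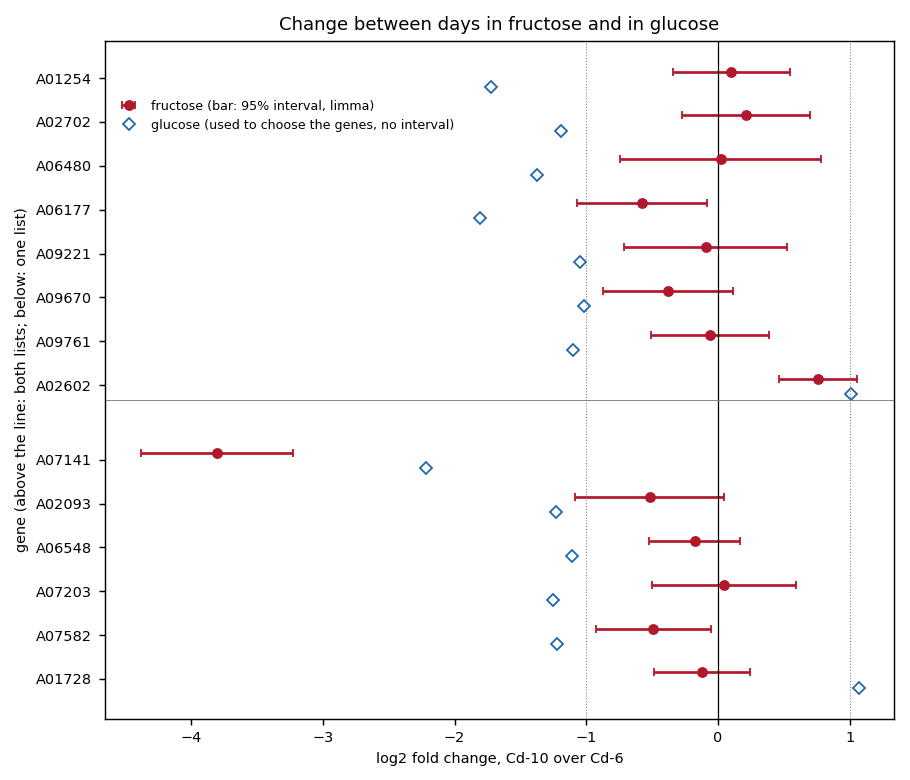
Log2 fold change between the periods (x axis, Cd-10 over Cd-6; dotted lines at the fold limit of the study) for the 8 genes (rows above the line) and the 6 genes printed under only 1 of the 2 lists (rows below it), in fructose as filled circles with 95% intervals from limma and in glucose as open diamonds without an interval, since the genes were chosen there. Among the 8 genes, only A02602 has a fructose interval above 0 and only A06177 one below it, with an adjusted p of 0.075 from limma; the glucose values are 1.01 for A02602 and -1.81 to -1.02 for the others.

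Most genes that passed the limits of the study in the limma fit in glucose also changed in fructose. These genes are not the study's own set, which was larger in both directions. The study's set held more genes higher than lower at Cd-6, unlike the limma fit. Of the 285 genes lower at Cd-10 in glucose past both limits, 284 were tested in fructose, and 190 of them (66.9%) were lower at Cd-10 there too at an adjusted p below 0.05 from limma, with a median log2 fold change of -1.003. Of the 434 genes higher at Cd-10 in glucose, 431 were tested in fructose and 294 (68.2%) were higher there, with a median of 1.005. A02602 belongs to the latter genes, and 6 of the 7 genes printed as higher at Cd-6 belong to the former. A06177 lies outside them, as it did not pass both limits in this fit. Of the 7 genes, 0 passed in fructose, with a median of -0.06. The share of 66.9% ranged from 54.2% without fructose Cd-6 replicate 1 to 83.1% without glucose Cd-6 replicate 2. The number of genes behind it was 138 without glucose Cd-10 replicate 1, 140 without glucose Cd-10 replicate 2 and 156 without glucose Cd-6 replicate 3. The share of 68.2% ranged from 57.2% without fructose Cd-6 replicate 1 to 80.0% without glucose Cd-10 replicate 1, and the 434 genes were 245 without glucose Cd-10 replicate 1, 266 without glucose Cd-10 replicate 2 and 255 without glucose Cd-6 replicate 3. The sugars share no library, but whether the 7 genes differ from the other selected genes was not tested. The difference between the changes in fructose and in glucose was not tested either, because it contains the glucose values that chose the genes.

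Side by side, the fructose means of the 7 genes stood between those of the glucose periods. For each of the 7, the mean was highest in glucose Cd-6 and lowest in glucose Cd-10, with both fructose groups in between, except that with the deposited scaling kept, A09670 had 592 in fructose Cd-10 against 613 in glucose Cd-10. At Cd-10, fructose cultures were above glucose cultures by 1.14 on the log2 scale for A01254, 1.11 for A06177, 0.95 for A06480, 0.76 for A02702 and 0.54 for A09221, without overlap in these 5 genes, although A06480 and A09221 overlapped under the deposited scaling. For A09761 and A09670 the differences were 0.48 and 0.08, and the cultures overlapped, although A09761 did not overlap with equal sums. The share of all genes without overlap between the sugars at Cd-10 was not taken, so nothing is read from the count of 5.

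At Cd-6, the fructose minus glucose difference was negative in all 7 genes. It was -0.70 for A01254, -0.66 for A02702 and -0.58 for A09761, without overlap, and -0.57 for A09670, -0.46 for A06480, -0.43 for A09221 and -0.14 for A06177, with overlap, although A09670 and A09221 did not overlap under the deposited scaling or with equal sums. In the order of the 4 means, the fructose Cd-10 and Cd-6 neighbours overlapped in 6 of the 7 genes. These differences are a description, as each contains the glucose values that chose the genes. No share of all genes was taken for the sugars at Cd-6 either, so nothing is read from the number of genes without overlap.

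A02602 had another order of means, from glucose Cd-10 (995 ± 134) over fructose Cd-10 (633 ± 22.4) and glucose Cd-6 (493 ± 13.8) to fructose Cd-6 (372 ± 12.8; SD, n = 3 each). No neighbours in this order overlapped, and no share of all genes was taken for this. Fructose cultures were below glucose cultures by -0.64 on the log2 scale at Cd-10 and by -0.40 at Cd-6.

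Averaged over both days, the contrast between fructose and glucose is separate, in its estimate, from the difference between the days that chose the genes. It was tested with limma over 10396 genes in all 12 libraries. The glucose libraries also enter its measure of the spread between cultures. The study's limit on *P* drew on those libraries, so the p-values are not fully separate from the choice. In the contrast, 917 genes (8.82%) changed at an adjusted p below 0.05, 374 of them (3.6%) higher and 543 (5.22%) lower in fructose. One of the 8 genes passed, again A02602, which was lower in fructose by a log2 difference of -0.52 (standard error 0.09, 95% interval -0.72 to -0.33, adjusted p = 0.0058 from limma). Over 26 other settings its value was -0.65 to -0.47, with adjusted p = 5.8e-06 to 0.046 in limma, edgeR and DESeq2, and without glucose Cd-6 replicate 2 it was -0.52. The share of all genes past the study's own limits in this contrast was 2.01%, and none of the 8 genes was among them. A02602 thus passed the test in 2 contrasts that share the fructose libraries, higher at Cd-10 and lower in fructose.

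For the other 7 genes, the averaged differences between fructose and glucose were between -0.24 (A09670) and 0.49 (A06177), and none passed. In each of the 7 the difference was positive at Cd-10 and negative at Cd-6, as given above. The average offsets these, so a small value does not mean equal levels in the sugars on each day. A06177 had an unadjusted p of 0.047 and an adjusted p of 0.18 from limma (95% interval 0.01 to 0.96), and 0.63 with an adjusted p of 0.090 from limma without glucose Cd-6 replicate 2. A01254 stood at 0.22 (95% interval -0.12 to 0.56, adjusted p = 0.39 from limma). The median of the 8 genes was 0.05, against 0.01 for all genes tested.

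The number of genes behind this contrast depended on single cultures and on the scaling. It was 512 without fructose Cd-10 replicate 3, 395 without fructose Cd-6 replicate 1, 552 without fructose Cd-6 replicate 2 and 552 without glucose Cd-10 replicate 1, and A02602 was the 1 gene of the 8 called in each of these fits. With libraries scaled to equal sums, 226 genes were higher and 808 lower in fructose and the median of all genes moved to -0.11; with the deposited scaling kept, 227 were higher and 1133 lower with a median of -0.12.

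The spread between replicate cultures was in large part shared by the 7 genes in 3 of the 4 groups. Fructose Cd-10 replicate 3 was the highest culture of its group in 6 of the 7 genes (39.3% of 10396 genes) and replicate 1 the lowest in 6 of 7 (30.4%). Among the fructose Cd-6 cultures, replicate 2 was the highest in all 7 genes (37% of all genes) and replicate 3 the lowest in 6 of 7 (35.4%). In glucose Cd-6, replicate 2, the library that stood apart, was the highest in 5 of 7 (37.6%) and replicate 1 the lowest in 5 of 7 (33.1%). Glucose Cd-10 had no shared highest culture, as replicates 1, 2 and 3 were the highest in 3, 1 and 3 of the 7 genes (31.1%, 25.9% and 43% of all genes), while replicate 2 was the lowest in 5 of 7 (31%). The 7 genes were measured in the same cultures and are not 7 separate replicates of a response.

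Deviations of the 12 libraries from their own group means, which remove the differences between groups, were correlated among the 7 genes with Pearson's r between 0.08 (A06177 with A09221) and 0.95 (A02702 with A06480). The median over the 21 pairs was 0.70 and all 21 were positive. A02602 showed no such relation, with r from -0.45 to 0.17 (median -0.03) against the 7 genes. These coefficients are a description over 12 libraries that all genes share, with no test, and the cause of the shared deviations was not tested. No such coefficients are given for other genes, so they do not show whether the relation is particular to the 7.

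**Figure D3:**
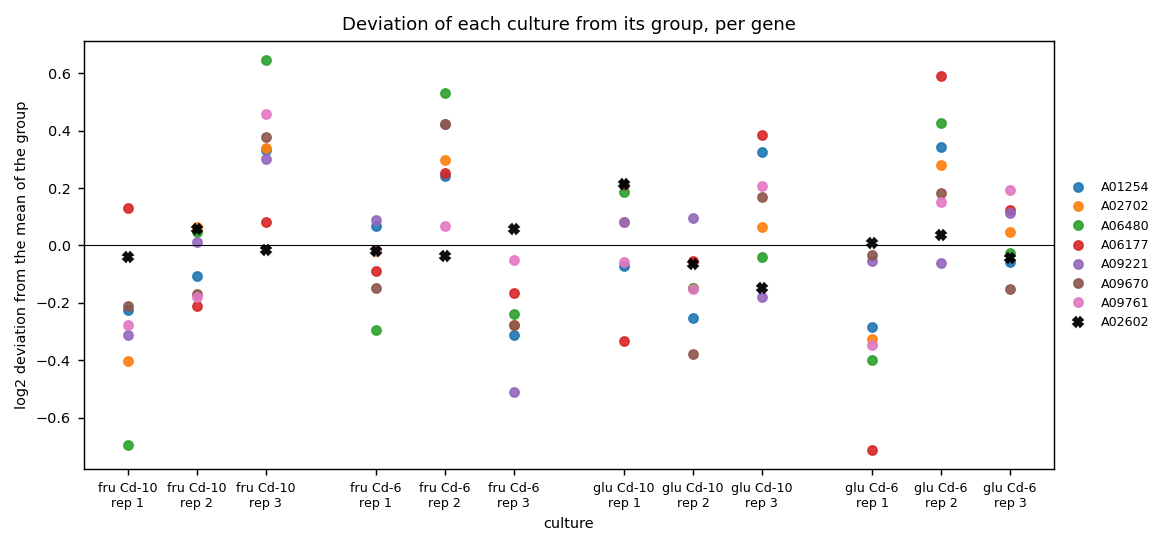
Deviation of each culture from the mean of its group on the log2 scale (y axis) for the 12 cultures (x axis, fructose Cd-10, fructose Cd-6, glucose Cd-10 and glucose Cd-6, replicates 1 to 3 each), with 1 colored circle for each of the 7 genes printed as higher at Cd-6 and a black cross for A02602. The circles lie mostly on one side of 0 in some cultures, as in fructose Cd-6 replicate 2, which was highest in all 7 genes. In others they lie on both sides, as in fructose Cd-10 replicate 2 and glucose Cd-6 replicate 3. A02602 lies near 0 except in glucose Cd-10.

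The genes differed in how far their replicate cultures spread. The coefficient of variation of A02602 was 3.53%, 3.43% and 2.81% in fructose Cd-10, fructose Cd-6 and glucose Cd-6, and 13.5% in glucose Cd-10. A06480 varied most in fructose, with 44.5% at Cd-10 and 34.5% at Cd-6, and the interval of its fold change is accordingly the widest of the 8.

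Over all 12 libraries, with the differences between groups kept, r was 0.69 to 0.96 among the 7 genes (median 0.84) and -0.87 to -0.52 between A02602 and the 7, while the median over all other genes was between -0.02 and 0.01 for each gene. Among 10395 other genes, the one most like A06480 was another of the 7, A02702 (r = 0.95). For A02702 it was A10154 (r = 0.96), with A01254 the next in rank.

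A01254 was most like A07894 (r = 0.99), A06177 like A02678 (0.95), A09221 like A04616 (0.94), A09670 like A03289 (0.94) and A09761 like A10249 (0.95). A02602 was most like A02540 (0.98). None of these 7 genes outside the lists (A10154 included) is named in the sources used here, and the glucose difference that chose the 8 genes is part of every coefficient.

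Beside the 8 shared genes, the study printed 5 genes under the yeast cell cycle alone and 1 gene, A07141, under meiosis alone. In fructose, 0 of these 6 genes were higher and 1 was lower at Cd-10, so that the cell cycle list of 13 had 1 higher and 0 lower genes and the meiosis list of 9 had 1 higher and 1 lower gene, against 14.6% and 15.2% of all genes. The contrast between the sugars called 0 of the 6, with 0 at an unadjusted p below 0.05 from limma, against 2828 of the 10396 genes tested. On the recovered reads, edgeR and DESeq2 called the same number of the 6 in each comparison.

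A07141 had normalized counts of 4523, 6392 and 4202 in the fructose Cd-10 cultures, against 76721, 52660 and 80972 in the fructose Cd-6 cultures. It fell by 3.81 on the log2 scale at Cd-10 (standard error 0.26, 95% interval of the log2 fold change -4.39 to -3.23, adjusted p = 9.1e-06 from limma). In glucose it had 6260, 5990 and 7137 at Cd-10 and 61915, 10789 and 41111 at Cd-6, or -2.22 on the log2 scale and -2.97 without glucose Cd-6 replicate 2, given as a description. The gene printed under meiosis alone was thus lower at Cd-10 in both sugars, whereas in fructose the 7 genes printed with it as higher at Cd-6 under meiosis were not called and A02602, also under meiosis, was higher at Cd-10.

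A01728 was the gene of the cell cycle list that, like A02602, was printed as lower at Cd-6. It had 1769.7, 1242 and 1544 in the fructose Cd-10 cultures and 1737, 1669 and 1487 in the fructose Cd-6 cultures, with a log2 fold change of -0.12 (95% interval -0.49 to 0.24, adjusted p = 0.60 from limma), against 1.07 in glucose. A07203 had 202, 291 and 346 at Cd-10 and 215, 354 and 239 at Cd-6 in fructose, with a log2 fold change of 0.05 (95% interval -0.50 to 0.60, adjusted p = 0.91 from limma), against -1.25 in glucose. In both genes the fructose cultures overlapped. The other 3 genes of the cell cycle list alone kept the sign of their glucose value without passing the test. Their fructose log2 fold changes were -0.52 for A02093 (adjusted p = 0.15 from limma), -0.49 for A07582 (unadjusted p = 0.031, adjusted p = 0.084 from limma) and -0.18 for A06548 (adjusted p = 0.42 from limma), against -1.23, -1.22 and -1.11 in glucose.

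**Figure D4:**
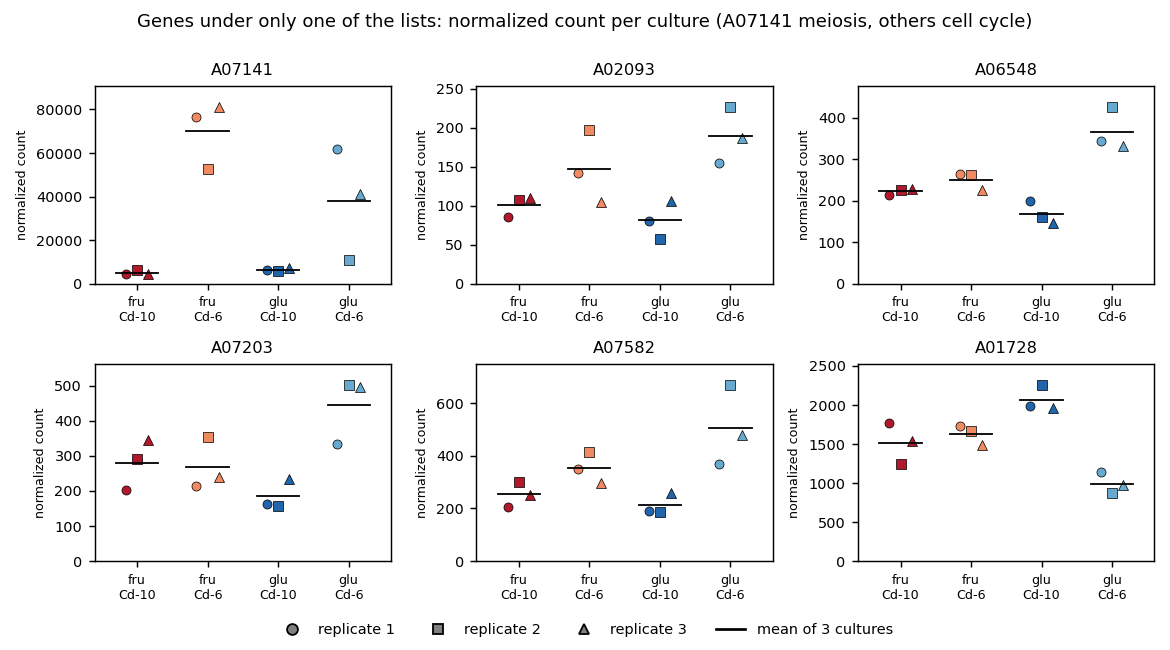
Normalized counts (y axis, linear from 0, own range for each gene) of the 6 genes printed under only 1 of the 2 lists, by culture, for fructose (fru) Cd-10, fructose Cd-6, glucose (glu) Cd-10 and glucose Cd-6, with symbol shapes for the replicate number and bars at the mean of 3. A07141 lies at 4202 to 6392 at Cd-10 and 52660 to 80972 at Cd-6 in fructose, and the fructose cultures of the other 5 genes overlap between the periods.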

How the data were processed

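RNA was sequenced from 3 replicate cultures in each of 4 groups, 12 libraries in all, and groups were taken from the sample labels. According to the methods of the study, Hisat2 2.0.5 served for mapping and featureCounts 1.5.0-p3 for counting, while the submitters' processing notes name HISAT2 and Cufflinks. The values deposited by the authors are a signal, made from counts per gene by dividing each library by its size factor within each carbon source. Every value came out as a whole number of reads within a tolerance of 0.01. The check of whole reads accepted this in 9 libraries and, where 1 read is worth about 1, did not in the other 3. The 8 genes were found by ID from the study's pathway lists, taken by name.

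Libraries were rescaled with median-ratio factors for each comparison. For genes that reached 10 in 3 or more libraries, log2(value + 1) entered limma 3.58.1 (R 4.3.3, two-sided, variance trend), and p-values were adjusted by Benjamini-Hochberg across every gene in the fit. Fructose used its own 6 libraries, and the sugar contrast all 12. Printed counts are on the 12-library scale. The limits of the study are a log2 fold change of 1 in either direction with *P* below 0.001. Genes outside the 8 were named as the other members of the 2 lists that passed in fructose or went against their glucose direction (A07141, A01728 and A07203), with the remaining 3 added after their values were seen, and as the gene with the highest Pearson's r to each of the 8. The members, lists and tests were chosen with earlier results of these data known. Alternatives were other scalings, filters and pseudocounts (0.5 and 5), limma without trend, a replicate block, each library left out, the limits of the study, and count tests on recovered reads (edgeR 4.0.16 and DESeq2 1.42.0). Count tests on all 12 libraries, the block across all groups and the leave-one-out of the genes selected in glucose were chosen after seeing the data. Scripts were tested on simulated data. The reference gene table matched 0 of the 11281 IDs. Figures used Python 3.11.15, numpy 2.4.6, pandas 2.3.3 and matplotlib 3.10.9.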

Additional observations from a re-analysis of the deposited data

How the results depend on the processing

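With 3 cultures per group, a gene can fail the adjusted test although its interval excludes 0, as A06177 did in fructose. In the simulated data for the fructose comparison, limma called 52% of the genes given a log2 fold change of 1. It called 92% of those given 2. Only 98 and 100 of the 9959 genes tested there had these changes, against 2999 of 10060 genes called in the real comparison. With so few changed genes the adjusted threshold is stricter in the simulation, so these shares need not hold for the real data. A gene that did not pass is still not shown to be unchanged. Among the 8 genes, A02602 was the only one called in both tests under every fit run at an adjusted p below 0.05. Under the limits of the study, the fructose comparison called 1094 genes and 0 of the 8, and the sugar contrast 209 genes and 0 of the 8, with A02602 at 0.76 and -0.52. Leaving out 1 library gave 1789 to 2704 genes in fructose and 395 to 1301 in the sugar contrast. With libraries scaled to equal sums, 1977 genes were higher and 1173 lower at Cd-10 in fructose, against 1472 and 1527. Reads of the 9 accepted libraries gave 433 genes (edgeR) and 1382 genes (DESeq2) in the sugar contrast, and all 12 libraries gave 1543 in DESeq2. The 9 libraries leave fructose Cd-10 with 1 library, assumed to vary like the others. The causes were not tested.

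Signs turned only in genes that did not pass the test. In fructose, equal-sum scaling gave A09221 0.0197 and A09761 0.0549, edgeR on 9 libraries 0.14 and 0.37, and DESeq2 on 9 libraries 0.14 and 0.38. Leaving out 1 library gave -0.0537 to 0.22 for A01254, -0.29 to 0.36 for A06480, -0.35 to 0.12 for A09221, -0.28 to 0.0750 for A09761, -0.11 to 0.26 for A07203 and -0.25 to 0.01 for A01728. In the sugar contrast, A02702 and A09221 were at -0.0752 and -0.0685 under equal-sum scaling and at -0.0825 and -0.0753 under the deposited scaling, and A09761 at 0.13 in edgeR and 0.14 in DESeq2 on 9 libraries. Leaving out 1 library there gave -0.0390 to 0.15 for A02702, -0.0505 to 0.18 for A09221 and -0.17 to 0.0180 for A09761.

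Same-numbered cultures did not deviate together across genes (r = 0.08, -0.08 and -0.08 in fructose, 0.09, -0.08 and -0.003 in glucose). The numbers thus gave no sign of pairing, although these values cannot exclude it. With the replicate block, the fructose comparison called 2480 genes and A02602 had an adjusted p of 0.011 from limma. The sugar contrast called 741 genes with a block across all groups. A block within each carbon source was not run for it, being nested in the contrast.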
